A study of Mus musculus with 26 samples.

Results

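The naive and memory programme of T cells was followed through 9 genes in pmel-1 T cells treated with inhibitors of the arginine methyltransferase PRMT5. The members were the transcription factor genes Tcf7, Lef1, Foxo1, Klf2 and Bach2, the E protein inhibitor gene Id3, and the receptor genes Il7r, Ccr7 and S1pr1. They were chosen by name, with earlier results of these data known, from the 15300 entries of the authors' normalized T cell table. All 9 were found, and each passed the filter on low counts in the fit of all T cell libraries. Il7r, with 5 to 10 counts per DMSO library, was removed by that filter when only MRTX1719 and DMSO libraries were fitted. Poly(A) RNA was sequenced from 3 groups, with 3 libraries in each. The first group received MRTX1719, which binds PRMT5 together with methylthioadenosine (MTA), and the second received GSK3326595, another PRMT5 inhibitor. Both were given at 0.5 uM over 3 days, and the third group received DMSO. The labels give the T cell genotype as WT. Cells of all 3 groups came from mice transgenic for the pmel-1 receptor, which recognises the melanoma antigen gp100, and were kept in IL-2 at 500 IU/ml. The labels do not say how the cells were activated, whether libraries came from separate mice or cultures, or whether animals were pooled, so the spread between libraries may be technical. In their treatment field, GSK3326595 libraries 2 and 3 carry another last digit in the compound's name, and the titles, which do not, were followed.

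TCF-1, encoded by Tcf7, and LEF1 are HMG box factors that act at the end of the WNT pathway and maintain naive T cells and the self-renewing part of memory. FOXO1, which AKT keeps out of the nucleus after receptor or cytokine signals, drives Il7r, Ccr7 and Klf2, and KLF2 drives S1pr1. In effector cells these genes are usually silenced while granzymes and cytokines are made.

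Total counts were 13813406 to 20772699 per T cell library. The CD8 T cell markers listed to check the label, Cd3d, Cd3e, Cd3g, Cd8a, Cd8b1, Trac, Thy1 and Cd2, were all detected. Their summed level was 3706 to 3771 CPM (counts scaled to library size, with TMM factors) with MRTX1719, 4203 to 4248 CPM with GSK3326595 and 3396 to 3426 CPM with DMSO. Cd4 averaged 0.610 CPM with MRTX1719, 0.609 CPM with GSK3326595 and 0.365 CPM with DMSO, and the B cell marker Ms4a1 had 0 counts in all 9 libraries. The CD4 T cell marker Zbtb7b, by contrast, averaged 34.7 CPM with MRTX1719, 30.4 CPM with GSK3326595 and 40.2 CPM with DMSO. The B cell marker Cd79b averaged 3.53 CPM with MRTX1719, 5.10 CPM with GSK3326595 and 3.38 CPM with DMSO. Prmt5 RNA averaged 243 ± 6.80 CPM with MRTX1719, 191 ± 4.43 CPM with GSK3326595 and 223 ± 1.94 CPM with DMSO (SD, n = 3 each). On the log2 scale Prmt5 was at 0.12 with MRTX1719 against DMSO (SE 0.037, adjusted p = 0.00452, edgeR). With GSK3326595 against DMSO it was at -0.22 (SE 0.037, adjusted p = 2.28e-07, edgeR), and both differences passed. Mtap, whose enzyme clears MTA, averaged 85.0 ± 2.03 CPM with MRTX1719, 79.4 ± 0.471 CPM with GSK3326595 and 79.3 ± 3.91 CPM with DMSO. Its difference from DMSO did not pass with MRTX1719 (adjusted p = 0.0985, edgeR) or with GSK3326595 (adjusted p = 0.978, edgeR).

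Sequence upstream of annotated starts is shown for Tcf7 and Il7r, the 2 members that rose most with both inhibitors, and for Klf2, which rose with GSK3326595 and did not pass the test with MRTX1719. The sequences are those of RefSeq on GRCm38.p6, an older build than the GRCm39 of the counts. Each runs 5′ to 3′ in the direction of the gene and ends at the base before a RefSeq start. The Tcf7 sequence is on the minus strand at chr11:52282596-52282845, before the second of 2 starts in that table. An annotated Tcf7 transcript starts further upstream, at 52283014, so the printed Tcf7 stretch lies inside the gene and not before it. The Il7r sequence is on the minus strand at chr15:9529877-9530126 and the Klf2 sequence on the plus strand at chr8:72318812-72319061. Another annotation differs from RefSeq here. It starts Klf2 at 72319033, inside the printed stretch. It starts the protein-coding Il7r transcripts at 9529828 and 9529835, downstream of the Il7r stretch, and a processed Il7r transcript at 9530176, upstream of it. Capitals mark a match to the KLF core searched.
Tcf7: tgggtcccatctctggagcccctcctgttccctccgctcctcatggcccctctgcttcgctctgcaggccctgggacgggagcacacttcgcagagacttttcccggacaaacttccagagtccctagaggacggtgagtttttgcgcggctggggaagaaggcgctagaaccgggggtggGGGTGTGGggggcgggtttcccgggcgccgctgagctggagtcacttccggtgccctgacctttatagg
Il7r: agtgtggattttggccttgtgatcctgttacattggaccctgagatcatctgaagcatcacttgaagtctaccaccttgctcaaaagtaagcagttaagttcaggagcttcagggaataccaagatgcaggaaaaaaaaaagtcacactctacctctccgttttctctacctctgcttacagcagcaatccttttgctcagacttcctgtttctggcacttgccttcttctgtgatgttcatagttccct
Klf2: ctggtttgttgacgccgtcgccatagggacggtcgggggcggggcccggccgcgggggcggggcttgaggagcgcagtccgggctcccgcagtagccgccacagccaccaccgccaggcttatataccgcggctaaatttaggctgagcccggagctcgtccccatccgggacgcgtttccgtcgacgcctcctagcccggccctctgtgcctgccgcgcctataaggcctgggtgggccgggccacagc
Windows were given for 7 of the 9 members, and Ccr7 and S1pr1 had none. The search covered both strands for the FOXO core GTAAACA, the TCF/LEF core CTTTGAT and the KLF core CCACACCC, which do not overlap each other. Each of the 11 windows of the members reached from before a RefSeq start to a little after it. A match was found in 1, the window of the second Tcf7 start. It held the KLF core on the minus strand and the FOXO core just after that start. Over all 32851 windows of the table the FOXO core was in 3.65%, the TCF/LEF core in 3.73% and the KLF core in 3.56%. A match is a description of letters and not a binding site, and distal elements were not searched.

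With GSK3326595 all 9 genes were called higher than with DMSO, where 26.6% of all tested genes were, by between 1.15-fold for Lef1 and 7.40-fold for Il7r. Tcf7 was 4-fold higher, Ccr7 2.97-fold, S1pr1 2.32-fold and Klf2, Id3 and Foxo1 between 1.68-fold and 1.87-fold higher, and Bach2 1.17-fold. MRTX1719 at the same dose and time raised Tcf7, Il7r, Ccr7 and Foxo1 by smaller amounts, where 18.9% of all tested genes were called higher. Lef1 was called lower with MRTX1719, where 18.5% of all tested genes were, and Klf2, S1pr1, Bach2 and Id3 did not pass. The MRTX1719 calls of Il7r and Lef1 were lost under some other settings, given below. Every gene was lower with MRTX1719 than with GSK3326595, in every library. Gene tests used edgeR's quasi-likelihood method, with p-values adjusted by Benjamini-Hochberg across 13753 tested genes and a threshold of 0.05, and ± after a log2 fold change is its standard error.

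Read against all genes, 9 of 9 members were called higher and 0 lower with GSK3326595 than with DMSO, where 26.6% of all tested genes were called higher, 26.2% lower and 52.8% either way. The members' median log2 fold change was 0.90, beside -0.003 over all genes. With MRTX1719 against DMSO 4 members were higher, 1 (Lef1) was lower and 4 did not pass, where 18.9% of all genes were called higher, 18.5% lower and 37.4% either way, and the members' median was 0.23 beside -0.001 over all genes. Between the inhibitors 0 members were higher and 9 lower with MRTX1719, where 19.3% of all genes were called higher, 19.7% lower and 39.1% either way, at a median of -0.97 beside -0.004. The libraries of 9 members lay wholly above DMSO with GSK3326595, as did those of 29% of all genes, and 29.1% lay wholly below. With MRTX1719 the libraries of 5 members lay wholly above DMSO and of 1 wholly below, against 22.8% and 22.9% of all genes. All 9 members lay wholly below GSK3326595 with MRTX1719, as did 23.7% of all genes, while 22.9% lay wholly above. Both comparisons with DMSO use the same DMSO libraries, so their values are only set side by side. The members share known regulators and are not independent of each other. They were also chosen with earlier results of these data known, so the shares over all genes are set beside them and test nothing. Il7r is counted among these calls, although it was tested against DMSO with MRTX1719 only while the GSK3326595 libraries were in the filtered fit. In bulk RNA a change in the share of cells of a kind and a change of RNA per cell cannot be told apart.

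**Figure D1:**
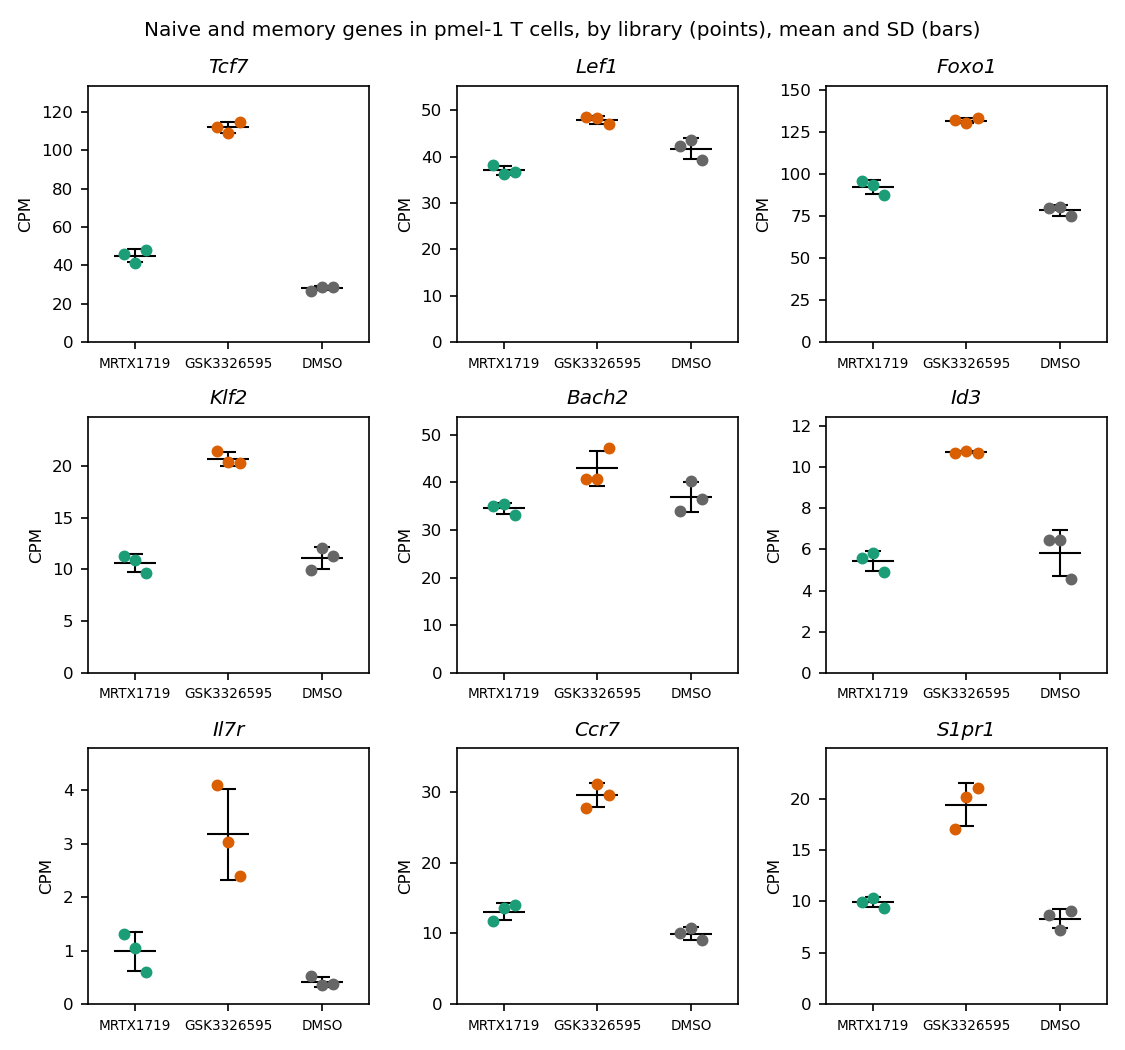
Level of each gene in CPM (y axes, from 0) in the 9 T cell libraries (points), with the mean and SD of each group of 3 (bars), for MRTX1719, GSK3326595 and DMSO. In each panel the 3 GSK3326595 libraries lie above all MRTX1719 and DMSO libraries, for instance at 109 to 115 CPM for Tcf7.

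Among the factors of the WNT pathway end, Tcf7 stood at 46.1, 41.2 and 47.8 CPM in the 3 MRTX1719 libraries, at 112, 109 and 115 CPM in the GSK3326595 libraries and at 26.8, 28.5 and 28.8 CPM in the DMSO libraries. The 3 groups did not overlap, with GSK3326595 highest and DMSO lowest. Tcf7 rose by 0.69 ± 0.061 on the log2 scale with MRTX1719 (adjusted p = 5.83e-17) and by 2.0 ± 0.055 with GSK3326595 (adjusted p = 1.54e-51). The GSK3326595 change ranked 21 of 13753 genes from the highest log2 fold change. MRTX1719 against GSK3326595 gave -1.31 ± 0.051 for Tcf7 (adjusted p = 1.93e-39).

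Lef1, the relative of Tcf7, moved far less. It stood at 38.2, 36.3 and 36.8 CPM with MRTX1719, at 48.5, 48.3 and 47.0 CPM with GSK3326595 and at 42.4, 43.7 and 39.2 CPM with DMSO. The groups did not overlap, and here MRTX1719 lay below DMSO. Lef1 rose by 0.20 ± 0.058 with GSK3326595 (adjusted p = 0.0026) and fell by 0.17 with MRTX1719 (SE 0.061, adjusted p = 0.0193). The fall did not pass without DMSO library 1 or 2 (adjusted p = 0.0763 and 0.11) or without MRTX1719 library 2 or 3 (adjusted p = 0.0683 and 0.0691), nor with DESeq2 (adjusted p = 0.0505) or with no filter on low counts (adjusted p = 0.102). Between the inhibitors Lef1 differed by -0.37 ± 0.059 (adjusted p = 1.44e-07).

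Foxo1, the factor upstream of several other members, stood at 96.1, 93.6 and 87.7 CPM with MRTX1719, 132, 130 and 133 CPM with GSK3326595 and 80.1, 80.4 and 74.9 CPM with DMSO. Again no group overlapped another. The log2 fold change was 0.23 ± 0.046 with MRTX1719 (adjusted p = 1.46e-05) and 0.75 ± 0.044 with GSK3326595 (adjusted p = 1.1e-27). MRTX1719 against GSK3326595 gave -0.52 ± 0.043 (adjusted p = 2.73e-18).

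Klf2, a zinc finger factor of quiescent T cells, stood at 11.3, 10.9 and 9.63 CPM with MRTX1719, at 21.5, 20.4 and 20.2 CPM with GSK3326595 and at 9.98, 12.1 and 11.3 CPM with DMSO. The MRTX1719 and DMSO libraries overlapped, while GSK3326595 lay apart from both. Klf2 rose by 0.90 ± 0.096 with GSK3326595 (adjusted p = 5.83e-14). With MRTX1719 it was at -0.07 ± 0.11 (adjusted p = 0.667), with a 95% interval of -0.28 to 0.15, and between the inhibitors at -0.97 ± 0.096 (adjusted p = 6.15e-15).

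Id3, which encodes an inhibitor of E proteins, was at 5.58, 5.82 and 4.89 CPM with MRTX1719, at 10.7, 10.8 and 10.7 CPM with GSK3326595 and at 6.44, 6.46 and 4.55 CPM with DMSO. Only the GSK3326595 libraries stood apart, at a log2 fold change of 0.88 ± 0.13 (adjusted p = 1.36e-08). With MRTX1719 Id3 was at -0.11 ± 0.15 (adjusted p = 0.619, 95% interval -0.40 to 0.19), and MRTX1719 against GSK3326595 gave -0.99 ± 0.13 (adjusted p = 1.11e-09).

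Bach2, a repressor that competes with AP-1 at effector genes, was at 35.0, 35.4 and 33.1 CPM with MRTX1719, at 40.6, 40.8 and 47.2 CPM with GSK3326595 and at 34.0, 40.3 and 36.5 CPM with DMSO. The lowest GSK3326595 library lay only just above the highest DMSO library. Bach2 rose by 0.22 ± 0.064 with GSK3326595 (adjusted p = 0.00208), a call that was lost without DMSO library 1 (0.16, adjusted p = 0.0572) and without GSK3326595 library 3 (0.15, adjusted p = 0.0744). With MRTX1719 it was at -0.09 ± 0.067 (adjusted p = 0.281, 95% interval -0.23 to 0.04). Between the inhibitors Bach2 differed by -0.32 ± 0.065 (adjusted p = 2.76e-05).

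Among the receptors, Il7r, the alpha chain that lets T cells respond to IL-7, had the largest fold and few reads. Its raw counts were 18, 18 and 12 with MRTX1719, 80, 47 and 48 with GSK3326595 and 10, 5 and 6 with DMSO. This corresponds to 1.30, 1.05 and 0.593 CPM with MRTX1719, 4.09, 3.03 and 2.40 CPM with GSK3326595 and 0.528, 0.355 and 0.364 CPM with DMSO. The groups did not overlap, but the MRTX1719 and DMSO values rest on few reads. Il7r rose by 2.89 ± 0.34 with GSK3326595 (adjusted p = 7.03e-12), a fold of 7.40 with a 95% interval of 4.61 to 11.9, and ranked 4 of 13753 genes. It rose by 1.15 ± 0.42 with MRTX1719 (adjusted p = 0.0229). That call was lost without DMSO library 2 or 3 (adjusted p = 0.064 and 0.069), without MRTX1719 library 1 or 2 (adjusted p = 0.118 and 0.0673) and with limma-voom (adjusted p = 0.0662). MRTX1719 against GSK3326595 gave -1.74 ± 0.30 for Il7r (adjusted p = 6.85e-07).

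Ccr7, the chemokine receptor that brings T cells into lymph nodes, stood at 11.7, 13.5 and 14.0 CPM with MRTX1719, at 27.8, 31.2 and 29.6 CPM with GSK3326595 and at 10.0, 10.8 and 9.03 CPM with DMSO. No group overlapped another. Ccr7 rose by 0.41 ± 0.10 with MRTX1719 (adjusted p = 0.000754) and by 1.57 ± 0.091 with GSK3326595 (adjusted p = 3.03e-28), and the inhibitors differed by -1.16 ± 0.086 (adjusted p = 2.38e-21).

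S1pr1, the sphingosine 1-phosphate receptor by which T cells leave lymph nodes, was at 9.93, 10.4 and 9.39 CPM with MRTX1719, at 17, 20.2 and 21.1 CPM with GSK3326595 and at 8.71, 7.24 and 9.03 CPM with DMSO. It rose by 1.21 ± 0.10 with GSK3326595 (adjusted p = 5.14e-18). The MRTX1719 libraries lay above all DMSO libraries, but the difference of 0.24 ± 0.12 did not pass (adjusted p = 0.104). MRTX1719 against GSK3326595 gave -0.97 ± 0.10 (adjusted p = 6.68e-14).

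**Figure D2:**
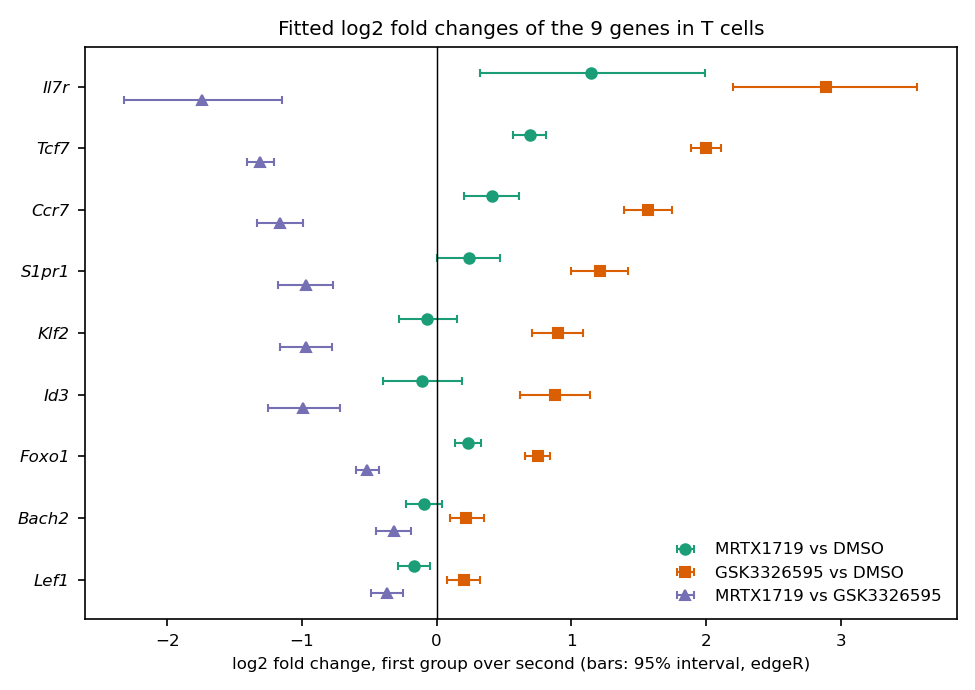
Log2 fold change of each gene (x axis) with its 95% interval (bars) for MRTX1719 over DMSO, GSK3326595 over DMSO and MRTX1719 over GSK3326595 in T cells. The GSK3326595 points run from 0.20 to 2.89 over DMSO, and every MRTX1719 over GSK3326595 point lies below 0.

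Levels between genes were compared as CPM per kilobase of exon, with lengths from GENCODE M21 (GRCm38). Tcf7 was highest in each group, at 17.2 ± 1.30 CPM per kilobase with MRTX1719, 42.6 ± 1.11 with GSK3326595 and 10.7 ± 0.420 with DMSO (SD, n = 3 each). Its level exceeded that of 79.6% of the tested genes with a known length in MRTX1719 libraries, 91.9% in GSK3326595 libraries and 70.8% in DMSO libraries. Il7r was lowest in each group, at 0.211 ± 0.0773 CPM per kilobase with MRTX1719, 0.681 ± 0.183 with GSK3326595 and 0.0891 ± 0.0209 with DMSO, and even with GSK3326595 it exceeded only 17.2% of genes. With MRTX1719 the order by level after Tcf7 was Foxo1, Ccr7, Klf2, Lef1, Bach2, S1pr1 and Id3, in which Ccr7 overlapped Klf2, Bach2 overlapped S1pr1 and S1pr1 overlapped Id3. With GSK3326595 it was Foxo1, Ccr7, Klf2, S1pr1, Id3, Lef1 and Bach2, in which Foxo1 overlapped Ccr7 and S1pr1 overlapped Id3. With DMSO it was Foxo1, Klf2, Ccr7, Lef1, Bach2, Id3 and S1pr1, in which each neighbour overlapped the next except Foxo1 and Klf2, and Lef1 and Bach2. S1pr1 and Id3 thus stood above Lef1 and Bach2 by level with GSK3326595, and below both with DMSO.

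The other genes of the pathways were read from 7 lists, drawn up with earlier results of this series known. No list was tested as a set. For comparison, 26.6% of all tested genes were called higher and 26.2% lower with GSK3326595, and 18.9% higher and 18.5% lower with MRTX1719. Between the inhibitors 19.3% were called higher and 19.7% lower with MRTX1719. Of 22 tested genes among 24 others linked to naive and memory cells, 12 rose, 6 fell and 4 did not pass with GSK3326595, with a median of 0.25. Cd27, a costimulatory receptor gene, averaged 61.6 ± 1.54 CPM with MRTX1719, 105 ± 5.09 CPM with GSK3326595 and 54.1 ± 1.80 CPM with DMSO (SD, n = 3 each). It rose by 0.95 ± 0.048 with GSK3326595 (adjusted p = 9.35e-32), and between the inhibitors differed by -0.76 ± 0.048 (adjusted p = 1.04e-25). Il6ra, the IL-6 receptor, rose by 1.29 ± 0.33 with GSK3326595 and the actin crosslinker gene Actn1 by 1.24 ± 0.11. The level of Il6ra was low, at 0.811 ± 0.441 CPM with DMSO and 2.06 ± 0.126 CPM with GSK3326595. With MRTX1719 the same list had 6 up, 6 down and 10 not passed, with a median of 0.02. Among its larger changes were falls of Elf4 (-0.44 ± 0.047), a quiescence factor of CD8 T cells, and of Myb (-0.42 ± 0.066), which sustains stem-like memory cells. The antiproliferative gene Btg2 fell too (-0.37 ± 0.082). Elf4 (-0.36 ± 0.047), Myb (-0.37 ± 0.065) and Btg2 (-0.77 ± 0.085) were also called lower with GSK3326595. Between the inhibitors 4 of the list were higher and 10 lower with MRTX1719, among them Actn1 (-1.13 ± 0.10) and Klf3 (-0.75 ± 0.18), a relative of Klf2.

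**Figure D3:**
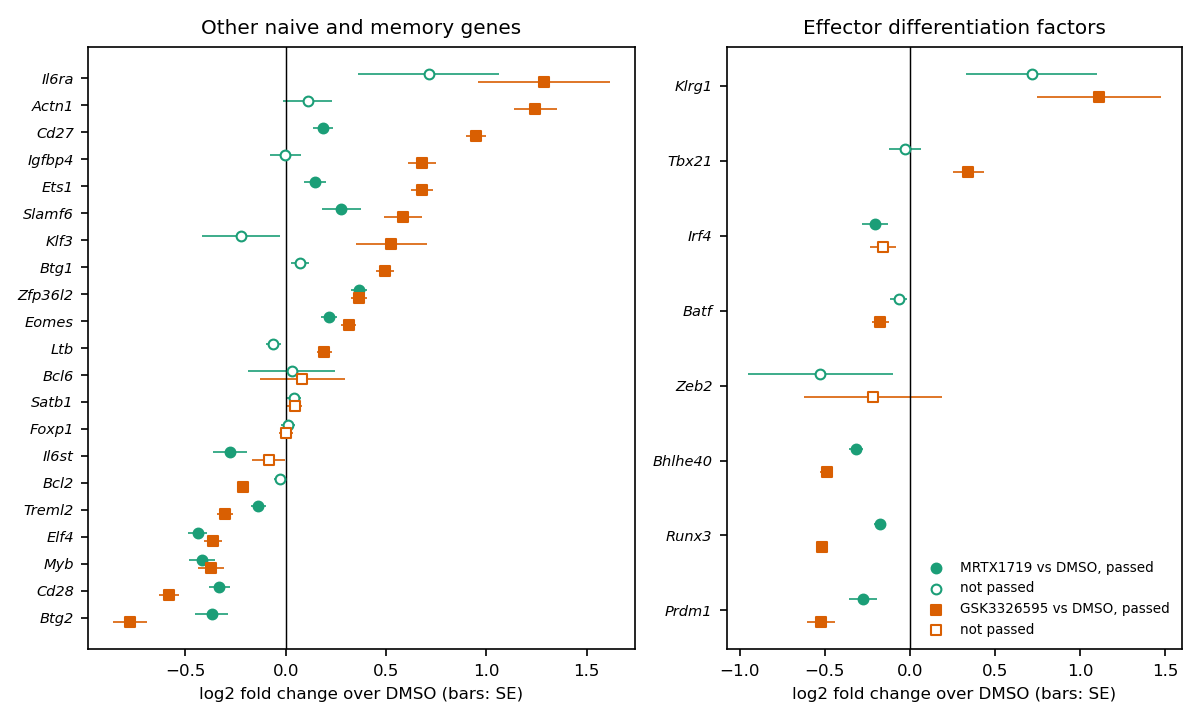
Log2 fold change over DMSO (x axes, bars are SE) of other tested naive and memory genes (left) and of effector differentiation factors (right) for MRTX1719 (circles) and GSK3326595 (squares), filled where the adjusted p was under 0.05. Il6ra, which averaged only 0.811 CPM with DMSO, is highest on the left at 1.29 with GSK3326595. Runx3, Bhlhe40 and Prdm1 lie below 0 on the right with both inhibitors.

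Effector differentiation factors drive or mark the cytotoxic state. Of 8 genes 4 fell, 2 rose and 2 did not pass with GSK3326595, with a median of -0.20, where 26.2% of all tested genes fell and 26.6% rose. With MRTX1719 0 rose, 4 fell and 4 did not pass, with a median of -0.19, where 18.9% of all tested genes rose and 18.5% fell. The 2 that rose with GSK3326595 became 1 without DMSO library 3 or GSK3326595 library 1, and the 4 that fell with MRTX1719 became 2 without DMSO library 2. Prdm1, which encodes the terminal differentiation factor Blimp-1, was at -0.27 ± 0.083 with MRTX1719 and -0.52 ± 0.084 with GSK3326595, and both passed. Runx3, a factor of the CD8 lineage, was at -0.17 ± 0.036 with MRTX1719 and -0.52 ± 0.036 with GSK3326595, and both passed. Bhlhe40 was at -0.32 ± 0.040 with MRTX1719 and -0.49 ± 0.040 with GSK3326595, and both passed. Batf was at -0.07 ± 0.051 with MRTX1719, which did not pass, and -0.17 ± 0.051 with GSK3326595, which did. Irf4 was at -0.20 ± 0.076 with MRTX1719, which passed, and -0.16 ± 0.075 with GSK3326595, which did not, and the difference between the inhibitors did not pass (-0.05 ± 0.076, adjusted p = 0.678). The master regulator of type 1 effectors, Tbx21, rose by 0.34 ± 0.089 with GSK3326595 and was at -0.03 ± 0.093 with MRTX1719. Klrg1, a surface marker of terminal effectors that reached only 1.43 CPM, rose by 1.11 ± 0.36 with GSK3326595 and did not pass with MRTX1719 (0.72 ± 0.39). Zeb2 passed in no comparison (-0.53 ± 0.43 with MRTX1719 and -0.22 ± 0.41 with GSK3326595).

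The IL-7 receptor works through the common gamma chain, JAK1, JAK3 and STAT5. All 8 genes of that list were called changed with GSK3326595, where 52.8% of all tested genes were. Jak3 averaged 215 ± 8.41 CPM with MRTX1719, 375 ± 14.0 CPM with GSK3326595 and 171 ± 5.83 CPM with DMSO. It rose by 0.33 ± 0.039 with MRTX1719 (adjusted p = 1.46e-11) and by 1.13 ± 0.038 with GSK3326595 (adjusted p = 6.94e-45). Jak1 and the survival gene Mcl1 each rose by 0.42 with GSK3326595 (SE 0.036 and 0.039), Stat5b by 0.24 ± 0.056 and the gamma chain gene Il2rg by 0.23 ± 0.037. The STAT5 target Cish fell by 0.42 (SE 0.036), Bcl2, the survival gene downstream of IL-7, by 0.21 (SE 0.032) and Stat5a by 0.14 (SE 0.061). With MRTX1719 Jak1 (0.17 ± 0.037) and Mcl1 (0.09 ± 0.039) also rose, while Il2rg (-0.24 ± 0.038), Stat5a (-0.39 ± 0.063) and Cish (-0.17 ± 0.036) fell, and Stat5b (-0.02 ± 0.057) and Bcl2 (-0.03 ± 0.032) did not pass. Il2rg thus went in opposite directions with the inhibitors, and the difference between them was -0.47 ± 0.037 (adjusted p = 1.11e-19).

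The remaining lists held genes called in both directions, as did all tested genes. Of all tested genes 26.6% were called higher and 26.2% lower with GSK3326595, and 18.9% higher and 18.5% lower with MRTX1719. Of 18 tested genes of the TCF1/LEF1 partner and WNT list, 7 rose, 5 fell and 6 did not pass with GSK3326595 (median -0.04), and 3 rose, 8 fell and 7 did not pass with MRTX1719 (median -0.14). The corepressor gene Tle2 fell most, to 2.57 ± 0.121 CPM with GSK3326595, against 7.42 ± 0.303 CPM with DMSO, a log2 fold change of -1.53 ± 0.17, and by 0.55 with MRTX1719 (SE 0.16). The coactivator gene Bcl9 fell by 0.91 with GSK3326595 (SE 0.16) and by 0.58 with MRTX1719 (SE 0.15), and the kinase gene Gsk3a rose by 0.58 ± 0.052 with GSK3326595. Of 24 FOXO and PI3K-AKT genes 7 rose and 9 fell with GSK3326595, and 2 rose and 7 fell with MRTX1719, where upper quartile scaling gave 12 falls. Sgk1, a kinase that like AKT phosphorylates FOXO factors, averaged 19.0 ± 0.857 CPM with MRTX1719, 11.4 ± 1.19 CPM with GSK3326595 and 27.1 ± 1.58 CPM with DMSO, a fall of 0.51 with MRTX1719 (SE 0.082) and of 1.25 with GSK3326595 (SE 0.088). Foxo4, a relative of Foxo1, was at -0.19 ± 0.10 with MRTX1719, which did not pass, and fell by 0.49 with GSK3326595 (SE 0.10). Among the list's known FOXO targets, which do not include the members Il7r, Ccr7 and Klf2, calls differed by gene and by inhibitor. Txnip was at -0.08 ± 0.038 with MRTX1719, which did not pass, and rose by 0.51 ± 0.038 with GSK3326595. Bcl2l11, which encodes the death protein BIM, fell by 0.15 with MRTX1719 (SE 0.054) and rose by 0.50 ± 0.051 with GSK3326595. Cdkn1b, a cell cycle inhibitor gene, fell by 0.43 with MRTX1719 (SE 0.089) and did not pass with GSK3326595 (-0.13 ± 0.085, adjusted p = 0.188). Ccng2, Sesn1 and Gabarapl1 passed with neither inhibitor.

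Of 15 tested homing and egress genes 8 rose and 4 fell with GSK3326595, and 5 rose and 3 fell with MRTX1719. The shares over all tested genes were 26.6% higher and 26.2% lower with GSK3326595, and 18.9% higher and 18.5% lower with MRTX1719. The integrin gene Itga4 rose by 0.72 ± 0.11, the chemokine receptor gene Cxcr4 by 0.61 ± 0.23 and the adhesion receptor gene Cd44 by 0.58 ± 0.079 with GSK3326595. Cd69, whose protein removes S1PR1 from the cell surface, averaged 163 ± 2.0 CPM with MRTX1719, 141 ± 7.85 CPM with GSK3326595 and 191 ± 6.22 CPM with DMSO. Cd69 was at -0.23 ± 0.040 with MRTX1719 and -0.44 ± 0.040 with GSK3326595, and both passed. Among 10 E protein, ID and MAF or BACH partner genes, the small MAF genes that pair with BACH proteins fell with both inhibitors. Mafk was at -0.71 ± 0.056 with MRTX1719 and -0.82 ± 0.056 with GSK3326595, Maff at -0.44 ± 0.11 with MRTX1719 and -0.69 ± 0.12 with GSK3326595, and Mafg at -0.21 ± 0.040 with MRTX1719 and -0.68 ± 0.040 with GSK3326595. In all, 2 of that list rose (1 without DMSO library 1) and 3 fell with MRTX1719, and 2 rose and 4 fell with GSK3326595.

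The profile of each member over the 9 libraries was compared with 8157 or 8158 other genes of at least 10 CPM, by the root mean square distance between log2 profiles centred on their means. The nearest gene to Tcf7 was the guanylate binding protein gene Gbp2, at a distance of 0.125, with 81.7 CPM in MRTX1719, 194 CPM in GSK3326595 and 58.1 CPM in DMSO libraries. Nearest to Il7r was Tcf7 itself, at 0.452. Nearest to Ccr7 was Cmah (0.140), to Klf2 Dock10 (0.0952), to S1pr1 Gramd1a (0.127), to Id3 Klhl24 (0.122), to Foxo1 Orc3 (0.0350), to Bach2 Hsdl2 (0.05) and to Lef1 Gm46430 (0.0355). Among the members themselves, Lef1 and Bach2 were nearest to each other (0.0995), followed by Klf2 and Id3 (0.164).

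Other measures moved with the same groups. The 7 of 8 CD8 T cell markers called higher with GSK3326595 include Cd8a (0.59 ± 0.033) and Trac (0.45 ± 0.041), where 26.6% of all tested genes were higher. With MRTX1719 5 of 8 were higher, where 18.9% of all tested genes were. B cell markers, of which 4 of 6 had a count with MRTX1719, 5 with GSK3326595 and 5 with DMSO, summed to 3.85 to 4.31 CPM with MRTX1719, 4.89 to 6.91 CPM with GSK3326595 and 3.34 to 4.86 CPM with DMSO, nearly all from Cd79b. Of 7 myeloid and dendritic markers 5 had a count with either inhibitor and 3 with DMSO, and they summed to 2.67 to 3.62 CPM with MRTX1719, 5.54 to 6.90 CPM with GSK3326595 and 2.48 to 3.98 CPM with DMSO, mostly from Itgax, with Lyz2 and Flt3 at 0 counts throughout. NK cell markers summed to 7.90 to 9.72 CPM with MRTX1719, 7.49 to 8.85 CPM with GSK3326595 and 5.18 to 6.02 CPM with DMSO, mostly from Klrb1c, with 2 of 4 detected with MRTX1719, 3 with GSK3326595 and 2 with DMSO, and Ncr1 at 0 counts. All 4 epithelial markers had a count, and they summed to 5.94 to 7.80 CPM with MRTX1719, 6.80 to 8.20 CPM with GSK3326595 and 3.91 to 4.54 CPM with DMSO. CD4 T cell markers, mostly Zbtb7b, had a count for 4 of 4 genes with MRTX1719, 3 with GSK3326595 and 4 with DMSO, and summed to 34.5 to 38.8 CPM with MRTX1719, 30.1 to 33.9 CPM with GSK3326595 and 40.3 to 42.6 CPM with DMSO. The part of these marker genes in the result was not tested. Nuclear RNAs, looked at as signs of RNA quality after the values of the members were seen, also differed between groups. Neat1 stood at 223 to 230 CPM with MRTX1719, 113 to 121 CPM with GSK3326595 and 293 to 311 CPM with DMSO, and Malat1 at 5857 to 6416 CPM with MRTX1719, 4539 to 4721 CPM with GSK3326595 and 4471 to 4757 CPM with DMSO. Their part in the result was not tested either.

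In MC38/gp100 cells, a mouse colon adenocarcinoma line given the same inhibitors at 0.5 uM over 5 days, 7 of the 9 genes averaged above 1 CPM in every group. These levels come from a table normalized separately, in 17 libraries of an Mtap knockout (KO) and a wild-type line, and are given with no test. Il7r had 1 count in 1 KO library with GSK3326595 and 0 counts in the others, and Ccr7 had 1 to 9 counts in every library. Lef1 and Bach2 were detected in all 17 libraries, Lef1 at group means of 5.48 to 13.3 CPM and Bach2 at 1.65 to 5.75 CPM. Tcf7 averaged 10.3 ± 0.413 CPM with MRTX1719, 8.75 ± 0.263 CPM with GSK3326595 and 7.45 ± 0.315 CPM with DMSO in KO cells (SD, n = 3 each). In wild-type cells Tcf7 averaged 13.9 CPM with MRTX1719 (n = 2), 13.0 ± 0.394 CPM with GSK3326595 and 13.4 ± 0.622 CPM with DMSO. In KO cells Klf2 was lower with either inhibitor than with DMSO in every library, at 14.7 ± 0.873 CPM with MRTX1719, 28.5 ± 2.46 CPM with GSK3326595 and 49.5 ± 3.49 CPM with DMSO. In wild-type cells Klf2 averaged 71.7 CPM with MRTX1719 (n = 2), 58.1 ± 2.09 CPM with GSK3326595 and 85.2 ± 5.61 CPM with DMSO. S1pr1 averaged 7.85 ± 0.258 CPM with MRTX1719, 7.30 ± 0.526 CPM with GSK3326595 and 4.67 ± 0.0957 CPM with DMSO in KO cells, where the inhibitor groups lay above DMSO. In wild-type cells S1pr1 averaged 5.84 CPM with MRTX1719 (n = 2), 7.28 ± 0.719 CPM with GSK3326595 and 6.13 ± 0.453 CPM with DMSO, and the libraries of either inhibitor overlapped those with DMSO.

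**Figure D4:**
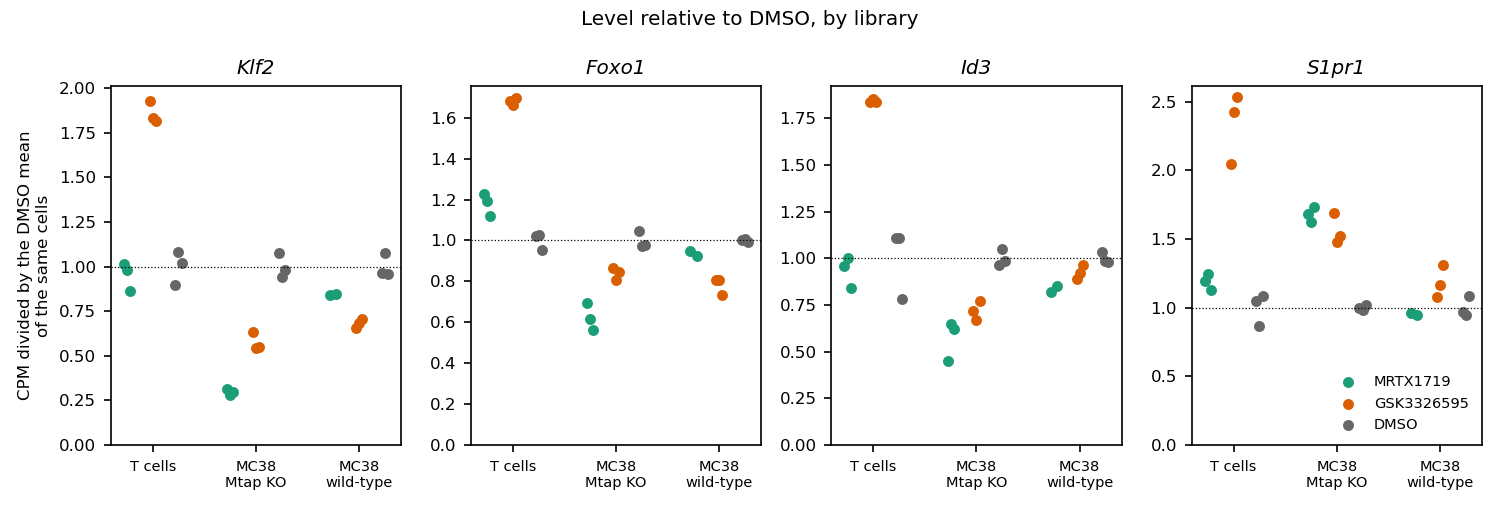
CPM of Klf2, Foxo1, Id3 and S1pr1 in each library divided by the DMSO mean of the same cells (y axes, from 0), for T cells, MC38 Mtap KO cells and MC38 wild-type cells with MRTX1719, GSK3326595 and DMSO (points are libraries). With GSK3326595 Klf2, Foxo1 and Id3 lie above the DMSO libraries in T cells and below them in both MC38 lines.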

How the data were processed

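Poly(A) RNA libraries were sequenced on a NovaSeq X plus after directional library preparation, per the labels' protocols. The submitters' processing notes name TopHat2 2.0.10, Bowtie2 2.1.0 and DESeq 1.18.0 with the GRCm39 build; the counting program, annotation release and strand setting were not given in the sources used here. For each cell type the authors deposited gene counts and a normalized signal, which was tested and equals those counts divided by a size factor per library. Values tied 15287 of 15300 normalized T cell entries to an identifier, which took the authors' symbol; others were named from the supplied table.

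Raw T cell counts, 13813406 to 20772699 per library, were fitted with edgeR 4.0.16 in R 4.3.3 (TMM, filterByExpr, robust quasi-likelihood, all 9 libraries, no covariates), checked first on simulated data. The filter left 13753 of 56562 genes. Replicates differed beyond sampling noise (chi-square per gene 1.94 to 3.63), and the common biological coefficient of variation was 0.0372. Alternatives were RLE and upper quartile scaling, DESeq2 1.42.0, limma-voom (limma 3.58.1), no filter, fits of the 2 groups compared, a replicate block and each library left out.

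The members and lists were chosen with earlier results of these data known. Named were all members, up to 4 genes per list and comparison with the largest changes past the threshold, all genes of lists of 8 or fewer, and the nearest profile of each member, for which 0.1 CPM was added before the log2. The values of 1 listed gene are not reported here, though it is counted in its lists. Counting cannot separate overlapping genes: GENCODE M21 places Gm38034 within Foxo1 (1222 counts over the 9 libraries, against 15863 of Foxo1) and Gm43352 antisense to Lef1 (266 against 6597).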

Additional observations from a re-analysis of the deposited data

Results flagged for a closer look

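Klf2 and Id3 with GSK3326595, and Foxo1 with either inhibitor, differed in direction between T cells and MC38 cells, every such inhibitor library lying above the DMSO libraries in T cells and below them in both MC38 lines. With MRTX1719 the T cell libraries of Klf2 and Id3 overlapped those with DMSO. These differences were not tested, since the tables were normalized separately and the treatments lasted 3 days in T cells and 5 days in MC38 cells. Log2 ratios of group means are given. With GSK3326595 Klf2 was at 0.90 in T cells, at -0.80 in MC38 Mtap KO cells and at -0.55 in MC38 wild-type cells. Foxo1 with GSK3326595 was at 0.75 in T cells, -0.25 in KO cells and -0.36 in wild-type cells. With MRTX1719 it was at 0.24 in T cells, -0.68 in KO cells and -0.10 in wild-type cells, the last from 2 MRTX1719 libraries. Id3 with GSK3326595 was at 0.88 in T cells, -0.48 in KO cells, where it averaged 2.57 CPM with GSK3326595 and 3.57 CPM with DMSO, and -0.11 in wild-type cells.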

How the results depend on the processing

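Directions held under all 16 alternatives for each member in the comparisons of GSK3326595 with DMSO and of MRTX1719 with GSK3326595, and their calls were lost only for Bach2 with GSK3326595, as given above. With MRTX1719 against DMSO, Tcf7 (0.64 to 0.75), Ccr7 (0.35 to 0.48) and Foxo1 (0.21 to 0.28) passed under every alternative. Klf2, not past the threshold, reversed to 0.01 without MRTX1719 library 3 (adjusted p = 0.946) and ran from -0.15 to 0.01 when a library was left out. The 1 member lower with MRTX1719, Lef1, became 0 with DESeq2 and with no filter on low counts, and 0 to 1 when a library was left out; its log2 fold change ran from -0.21 to -0.14. Il7r with MRTX1719 ran from 0.92 to 1.45 and was not tested in the fit of the 2 groups compared, whose filter removed it. With upper quartile scaling 12 FOXO and PI3K-AKT genes fell with MRTX1719, against 7. FOXO and PI3K-AKT genes called higher in MRTX1719 against GSK3326595 numbered 4, and 2 without GSK3326595 library 3. Deviations of same-numbered libraries from their group means, over all tested genes, correlated at -0.0396 to 0.0386. This gave no sign of pairing but cannot exclude it, since counting noise in low genes can hide a shared effect. With the replicate block 7195 genes were called for GSK3326595 against DMSO, in place of 7260. For MRTX1719 against DMSO 5036 were called in place of 5140, and between the inhibitors 5265 in place of 5376. No call of a member changed with the block. Depth limits Il7r most, with 5 to 10 counts per DMSO library.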
